A study of Mus musculus with 65 samples.

Results

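The comparison described here follows pMN progenitors over one day of differentiation, from day 5 to day 6. Its members are 11 of the 65 expression libraries of the series, namely every library labelled pMN on these days. Day 5 gave 6 libraries, 3 from cultures with 100 nM SAG and 3 from cultures with 500 nM, and day 6 gave 5, of which 3 had 100 nM and 2 had 500 nM. All of them came from HM1 cells, one line of mouse embryonic stem (ES) cells, the wild-type line of the study, so every result here rests on a single line. All cultures were first brought to a neuromesodermal state and then received retinoic acid together with SAG, a small molecule agonist of Smoothened that stands in for the Sonic hedgehog (Shh) signal of the floor plate. After fixation and intracellular antibody staining, SOX2-positive cells were gated and those with OLIG2 were collected, except cells that also held NKX2.2. RNA was then amplified as full-length cDNA from each sorted sample.

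pMN progenitors occupy a narrow stripe of the ventral neural tube, between the p3 domain below and the p2 domain above. They give rise first to motor neurons and later to oligodendrocyte precursors. OLIG2, a bHLH repressor, defines the domain, and a rise of the proneural factor NEUROG2 within it starts neuronal differentiation, during which SOX2 is shut down and LHX3, ISL1 and MNX1 are switched on.

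The 11 libraries held 8937621 to 12231784 reads assigned to genes and did not separate the days (exact permutation test, two-sided, p = 0.433). Genes detected did not either (12962 ± 516 against 12788 ± 994, SD, n = 5 and 6, exact permutation p = 0.714, where the smallest p that 5 against 6 libraries allow is 0.00433). Libraries differed instead in how many of the 13964 tested genes they missed. Replicate 2 of both day 5 groups had 2783 and 2883 of these genes at 0 and replicate 3 of day 6 at 500 nM had 2264, whereas the other 8 libraries had 1047 to 1918. These 3 sparse libraries also correlated least with the others of their day (median r across genes 0.733 to 0.751, against 0.794 to 0.823, genes not being independent replicates). Called genes and some list members with values near 0 in these libraries are given with and without them. Other such members, among them Id4, Ptprz1, Nefl, Nrp2 and Tubb3, are given with all libraries only.

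The sorted identity was checked first. OLIG2 protein had been used for the gate, and Olig2 had 1368 to 4266 normalised reads on day 5 (median 2938) and 3725, 3205, 4753, 4442 and 6214 on day 6. A normalised read is a read count divided by one size factor for its library, which is close to 1. All 5 day 6 libraries exceeded the day 5 median, but the 2 days overlapped and the change did not pass the test (log2 change 0.75 ± 1.16 SE, limma adjusted p = 0.995). Olig1, its neighbour and paralog, had 35.4 to 843 on day 5 and 297 to 1167 on day 6. Nkx6-1, a factor of the ventral progenitor domains, had 489.5 ± 122 (SD, n = 6) and 495 ± 231 (n = 5). Sox2 had 1721 ± 363 and 1387 ± 599, and Pax6, a factor graded against Shh, 1630 ± 530 and 1399 ± 646. Nkx2-2, whose protein the gate excluded, reached at most 98.1 on day 5 and 9.76 on day 6. Exons of Pax6 and Nkx2-2 overlap exons of Elp4 and Nkx2-2os on the other strand, and since strand use in counting is not stated, reads of such pairs cannot be told apart; the same holds for Ncam1, Unc5a, Id4, Notch1, Gli1 and Gna13 named later. None of these 5 sorted genes was called, and their median log2 change was -0.39 beside 0.05 for all tested genes.

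The markers of other cells were then read. The 3 neuromesodermal markers T, Cdx2 and Nkx1-2 were at 0 in all 11 libraries. Summed over each list, the 3 ES cell markers reached 17.9, the 3 neural crest markers 67.3 and the 4 p0-1 markers 288.5, the last from Dbx1 in 1 day 5 library, while on day 6 the p0-1 sum was at most 8.64. The 4 mesoderm and fibroblast markers summed to at most 126 on day 5 and 337 on day 6, and of these Col3a1 was at 0 in all day 5 libraries and reached 278 on day 6. Of the p3 list, Nkx2-9 kept a median of 562 on day 5 and 349 on day 6 and Foxa2 reached 346 and 368, and of the p2 list Irx3 had a median of 952 on day 5 and 452 on day 6. The motor neuron markers (Isl1, Isl2, Mnx1, Lhx3, Chat and Slc18a3) summed to 623 to 2582 on day 5 and 1340 to 6122 on day 6. The neuronal markers (Tubb3, Dcx, Stmn2, Elavl3 and Map2) summed to 358 to 1300 and 848 to 2659. Both sums had higher medians on day 6 (3588 against 1188, and 1660 against 810.5). Of the 6 motor neuron markers 1, Chat, and of the 5 neuronal markers 0 separated the days without overlap, beside 1.15% of all 13964 tested genes. The part of these cells in the results was not tested. In bulk samples more cells of a type and more RNA per cell cannot be told apart.

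**Figure D1:**
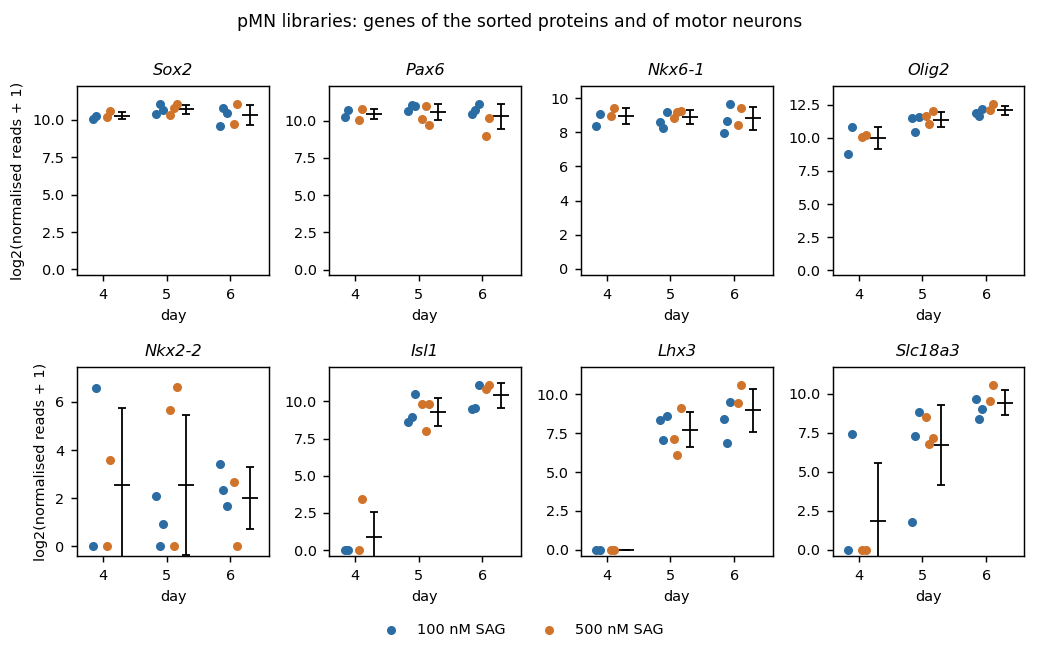
Normalised reads of the sorted genes Sox2, Pax6, Nkx6-1, Olig2 and Nkx2-2 and of the motor neuron genes Isl1, Lhx3 and Slc18a3 in every pMN library of days 4, 5 and 6, as log2(normalised reads + 1). Points are libraries, blue for 100 nM and orange for 500 nM SAG, and the black dash and bar are the mean ± SD of the log2 values of a day. Olig2 has 3205 to 6214 normalised reads on day 6 and 1368 to 4266 on day 5, and Lhx3 is at 0 in every day 4 library.

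To ask which genes changed between the days, limma was fitted to all 65 libraries with a day term for each cell type and with SAG concentration as a block. Calls required more than 2-fold change together with an adjusted p (Benjamini-Hochberg) under 0.05. In pMN, 8 of the 13964 genes were called (0.0573%), 4 higher on day 6 (Nnat, Chat, Slc25a51 and Gm13029, 0.0286% of all genes) and 4 lower (Itga3, Lin28a, Hs1bp3 and Gpx3, 0.0286%). A further 2 genes passed the adjusted p but not the fold, so that 0.0716% of genes passed it at any fold. They were Crabp2, described with its pathway, and Igdcc3, an immunoglobulin superfamily member named after its values were seen. Igdcc3 had 8161 to 14853 on day 5 and 19864 to 23078 on day 6 (log2 change 0.76 ± 0.16 SE, limma adjusted p = 0.0295), and lost this threshold without any one of 6 libraries, replicate 2 or 3 of day 5 at 500 nM, replicate 2 of day 5 at 100 nM, replicate 3 of day 6 at 100 nM or either day 6 library at 500 nM (adjusted p = 0.0532 to 0.196). With replicate number as a block, the limma adjusted p of Igdcc3 was 0.0691. At an unadjusted p below 0.05 there were 939 genes. The standard error of a log2 change was large, with a median of 0.88. Of the 8 calls, 4 were shared with edgeR, which called 5 genes (0.0358%), namely Nnat, Itga3, Lin28a and Hs1bp3. With DESeq2, which called 312 of 13914 (2.24%), 6 were shared, these 4 with Gpx3 and Slc25a51. Among the 312, 18 had no overlap between the libraries of the 2 days, as did 160 of all 13964 tested genes (1.15%). With the 11 pMN libraries fitted alone, 0 genes were called, and with the 3 sparse libraries left out 1 gene was called, Itga3.

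**Figure D2:**
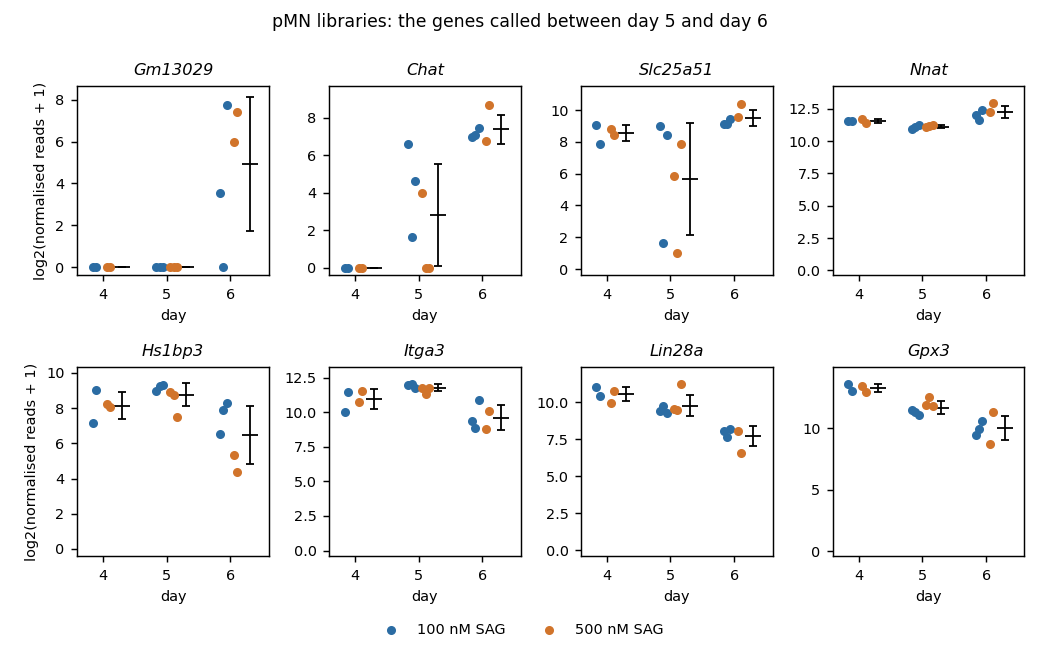
Normalised reads of the 8 called genes in every pMN library of days 4, 5 and 6, as log2(normalised reads + 1), the upper row higher and the lower row lower on day 6. Points are libraries, blue for 100 nM and orange for 500 nM SAG, and the black dash and bar are the mean ± SD of the log2 values of a day; Nnat, Itga3 and Lin28a have no overlap between days 5 and 6, while Slc25a51 and Chat have day 5 libraries near 0.

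Chat codes for choline acetyltransferase, which makes acetylcholine and so defines cholinergic neurons such as motor neurons. The gene lies on the reverse strand of chromosome 14 (mm10, 32408203 to 32465909). On day 5 it had 96.0, 2.15 and 23.95 normalised reads at 100 nM and 15.0, 0 and 0 at 500 nM. On day 6 it had 124, 132.5 and 172 at 100 nM and 107 and 410 at 500 nM. Thus every day 6 library was above every day 5 library, in means 189 ± 126 (SD, n = 5) against 22.9 ± 37.1 (n = 6). The difference of the mean log2 values, to which the day 5 libraries at 0 contribute, was 4.42 ± 0.92 SE (limma adjusted p = 0.0281). It was not called by edgeR (adjusted p = 1) or DESeq2 (log2 3.62, adjusted p = 0.929). With replicate number as a block, the limma adjusted p of Chat was 0.0555. The 4 day 4 libraries were all at 0. Without the 3 sparse libraries the log2 change was 2.68 (adjusted p = 1), and the call was also lost without any one of replicate 2 of day 5 at either concentration, replicate 3 of day 5 at 500 nM or either day 6 library at 500 nM (log2 3.71 to 4.35, adjusted p = 0.0784 to 0.303). The promoter window of Chat is shown because Chat is the one called gene of the motor neuron lists. It covers 250 bases before to 50 bases after the start (RefSeq, GRCm38.p6, reverse strand, chr14:32465860-32466159), and capitals mark the motif CANNTG, the E-box that bHLH factors such as NEUROG2 and OLIG2 can bind:
Chat: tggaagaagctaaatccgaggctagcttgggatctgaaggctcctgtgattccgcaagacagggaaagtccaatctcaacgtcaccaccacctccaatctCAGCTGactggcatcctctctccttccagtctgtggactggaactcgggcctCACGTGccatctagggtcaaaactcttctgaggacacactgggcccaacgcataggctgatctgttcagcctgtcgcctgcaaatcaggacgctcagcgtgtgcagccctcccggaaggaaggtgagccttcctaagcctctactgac
The window held 2 E-boxes, and 72.3% of 32851 mouse promoter windows of this length held at least 1, so the match describes the sequence only. The motif reads the same on both strands.

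The other genes for motor neuron function did not pass the test. Slc18a3, the vesicular acetylcholine transporter, from the same locus as Chat, had 2.42 to 459 on day 5 and 830, 335, 520, 734 and 1539 on day 6 (log2 change 2.84 ± 1.67 SE, adjusted p = 0.825). Isl1 had 257 to 1471 on day 5 and 706 to 2239 on day 6, and Lhx3 67.6 to 556 and 116 to 1579. Mnx1 had 0 to 238.5 and 0 to 363. Of the 14 listed pMN and motor neuron transcription factors, 0 were called and the libraries of 0 separated by day, beside 1.15% of all genes. A positive log2 change was seen in 10 of them (median 0.96), and in 53.3% of all genes. Of the 9 tested cholinergic effectors, 1 was called (Chat), with a median of 0.17. In p3, p2 and p0-1 the medians were 1.90, 0.38 and 0.33 for the transcription factors. For the effectors they were 2.54, 1.01 and 0.36. Isl1 was called higher in p3 (log2 change 4.96, limma adjusted p = 0.0449). Slc18a3 had log2 changes of 3.09, 2.54 and -0.91 in p3, p2 and p0-1, not called.

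Nnat, which codes for neuronatin, a small membrane protein of developing neural tissue from an imprinted gene, had the smallest standard error of the called genes that rose. It lies on the forward strand of chromosome 2 (mm10, 157560078 to 157562525). Day 5 libraries had 1984 to 2500 normalised reads (median 2239), and day 6 libraries had 4116, 3269 and 5425 at 100 nM and 4836 and 7771 at 500 nM. All day 6 libraries were above all day 5 libraries, and the mean rose from 2254 ± 181 (SD, n = 6) to 5083 ± 1705 (n = 5), with a difference of the mean log2 values of 1.14 ± 0.19 SE (limma adjusted p = 0.00183). The 4 day 4 libraries had 3022, 3081, 3288 and 2654, above every day 5 library, and the highest of them exceeded the lowest day 6 library. Without replicate 3 of day 6 at 500 nM the change fell just under 2-fold (log2 0.98, adjusted p = 0.0481), and without all 3 sparse libraries it was the same size (0.98) with an adjusted p of 0.26. The promoter window of this gene (RefSeq, GRCm38.p6, forward strand, chr2:157559828-157560127) is shown beside that of Chat, since it held 0 E-boxes. Neither window held TAATTA, the core bound by LIM homeodomain factors such as ISL1 and LHX3, which 5.29% of windows held:
Nnat: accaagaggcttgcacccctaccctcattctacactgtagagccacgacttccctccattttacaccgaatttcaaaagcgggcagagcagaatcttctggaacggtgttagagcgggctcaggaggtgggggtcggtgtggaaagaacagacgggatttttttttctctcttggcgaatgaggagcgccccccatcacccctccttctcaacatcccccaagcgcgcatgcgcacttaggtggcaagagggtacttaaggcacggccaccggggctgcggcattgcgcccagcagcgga

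Slc25a51, a carrier that brings NAD+ into mitochondria (chromosome 4, mm10, 45395924 to 45408766, reverse strand), had 511, 2.15 and 350 normalised reads on day 5 at 100 nM and 57.6, 0.9945 and 235 at 500 nM. On day 6 it had 557, 554.5, 687, 740 and 1320. No day 6 library fell below a day 5 library (log2 change 3.82 ± 0.81 SE, limma adjusted p = 0.0302). The values near 0 both came from sparse libraries, and without the 3 sparse libraries the log2 change was 1.27 (adjusted p = 1). It was also lost without any one of replicate 2 of day 5 at either concentration, replicate 3 of day 6 at 100 nM or either day 6 library at 500 nM (adjusted p = 0.0527 to 0.295). Gm13029, a predicted gene (chromosome 4, mm10, 140142873 to 140144988, forward strand), was at 0 in all day 4 and day 5 libraries and had 10.7, 0 and 211 on day 6 at 100 nM and 61.8 and 170 at 500 nM. Against a limit of 3 reads per library on day 5, its day 6 mean of 90.7 was at least 32.9-fold higher (limma adjusted p = 0.0281). The fit called it without replicate 1 or 3 of day 5 at 100 nM and without replicate 1 or 2 of day 6 at 100 nM, and lost it without any one of the other 7 libraries (adjusted p = 0.0532 to 0.271) and without the 3 sparse libraries (log2 4.55, adjusted p = 0.666). With replicate number as a block, the limma adjusted p of Gm13029 was 0.0555. Its mean was below 100, and it is named because it was among the 8 calls.

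Of the genes that fell, Itga3 was the most stable. It codes for integrin alpha 3, a subunit of a laminin receptor, and lies on the reverse strand of chromosome 11 (mm10, 95044475 to 95076811). Day 5 libraries had 4054, 4184 and 3441 normalised reads at 100 nM and 3515, 2618 and 3536 at 500 nM. Day 6 libraries had 655, 458 and 1937 at 100 nM and 442 and 1105 at 500 nM. The days did not overlap, with means of 3558 ± 555 (SD, n = 6) and 919 ± 629 (n = 5) and -2.20 ± 0.35 SE in log2 (limma adjusted p = 0.00117). Itga3 was the only one of the 8 genes that stayed called with each of the 11 libraries left out in turn (adjusted p = 7.08e-05 to 0.0131) and without the 3 sparse libraries (log2 -2.46, adjusted p = 0.0087).

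Lin28a, an RNA-binding protein of early embryos that blocks the maturation of let-7 microRNAs, fell as well. The gene is on the reverse strand of chromosome 4 (mm10, 134003330 to 134018816). Day 5 libraries had 674.5, 862 and 635.5 normalised reads at 100 nM and 761, 716 and 2377 at 500 nM, and day 6 libraries had 264, 199, 297, 262 and 92.3. All day 6 libraries were below all day 5 libraries (log2 change -2.09 ± 0.39 SE, limma adjusted p = 0.00661), and the mean had already been 1561 on day 4. Replicate 3 of day 5 at 500 nM stood far above the others of its day. The call was lost without replicate 3 of day 6 at 500 nM (log2 -1.70, adjusted p = 0.185) and without the 3 sparse libraries (log2 -1.73, adjusted p = 0.479). The promoter window of Lin28a (RefSeq, GRCm38.p6, reverse strand, chr4:134018767-134019066), shown as that of the called timing regulator, held 0 E-boxes and no TAATTA:
Lin28a: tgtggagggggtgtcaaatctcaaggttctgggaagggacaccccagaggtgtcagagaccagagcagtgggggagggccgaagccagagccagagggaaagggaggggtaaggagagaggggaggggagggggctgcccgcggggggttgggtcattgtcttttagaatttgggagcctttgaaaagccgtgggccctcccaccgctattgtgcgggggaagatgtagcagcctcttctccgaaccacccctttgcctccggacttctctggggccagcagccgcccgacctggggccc

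Hs1bp3, which codes for a membrane-binding protein with a PX domain (chromosome 12, mm10, 8313433 to 8343824, forward strand), had 498, 600.5 and 629 on day 5 at 100 nM and 477, 426 and 176 at 500 nM, against 90.8, 237.5 and 306 and then 40.2 and 19.8 on day 6. The days overlapped through 1 day 5 library, and the fit gave -2.45 ± 0.44 SE in log2 (limma adjusted p = 0.00486), which was lost without replicate 3 of day 6 at 500 nM (adjusted p = 0.0955) and without the 3 sparse libraries (adjusted p = 0.43). Gpx3, a secreted glutathione peroxidase (chromosome 11, mm10, 54902854 to 54910387, forward strand), had 2210 to 5871 on day 5 and 711, 999, 1498, 422.5 and 2506 on day 6. Its log2 change of -1.63 ± 0.35 SE (limma adjusted p = 0.036) followed a fall from a day 4 mean of 9874 to 3447 on day 5. The day 6 call was the least stable, since it held only when the library left out was replicate 3 of day 5 at 100 nM, replicate 3 of day 6 at 100 nM or replicate 3 of day 6 at 500 nM, with an adjusted p of 0.0532 to 0.29 without any other. Without the 3 sparse libraries the log2 change was -1.93 (adjusted p = 0.117). With replicate number as a block, the limma adjusted p of Gpx3 was 0.0555.

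The lists of genes were then read as counts. Because few genes could be called, the number of genes whose day 6 libraries all lay above, or all below, the day 5 libraries is given too. Over all 13964 genes these were 100 (0.716%) and 60 (0.43%), together 1.15%. With the 3 sparse libraries left out, which leaves 4 against 4, they were 303 and 307. Members named for this separation, and any others outside the rule for named genes, were chosen after their values were seen. Apart from Chat and Lin28a, 0 members of the 23 lists were called, and no list was tested as a set.

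All 20 tested proneural and neurogenic factors had a positive log2 change, as did 53.3% of all genes. Their median was 1.61 against 0.05 for all genes, and the libraries of 3 did not overlap between the days. Neurog1 had 14.9 to 82.7 on day 5 and 93.45 to 565 on day 6, and Neurod4, which acts downstream of the Neurogenins, had 0 to 800 and 1327, 1123, 1582, 2008 and 2982. Nhlh2, a bHLH factor of newborn neurons, had 0 to 265 and 306 to 1189. Without the 3 sparse libraries the log2 change of Neurod4 went from 2.99 to 1.45 and that of Nhlh2 from 3.19 to 1.46. Neurog2, the proneural factor of motor neurons, had 305 to 1397 (median 948) and 1053 to 2391 (median 2193), with an overlap through the lowest day 6 library (log2 change 1.23 ± 0.96 SE, limma adjusted p = 0.915). The median of the list was 0.96 to 1.92 under the alternatives, and in p3, p2 and p0-1 it was 0.99, 0.92 and 1.18. None was called.

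Pan-neuronal genes had a median log2 change of 0.93, 21 of 26 were positive, and 4 did not overlap (Map1b, Cntn2, Ncam1 and Nefl). Map1b, a microtubule-associated protein of growing axons, had the tightest values, 10280 to 14974 on day 5 against 22153, 15888, 18503, 21379 and 19397 on day 6 (log2 change 0.68 ± 0.17 SE, limma adjusted p = 0.103). Cntn2, the axonal adhesion molecule TAG-1 of early motor axons, had 410, 2.15, 415, 561, 0.9945 and 178 on day 5 and 1518, 789, 1324, 1703 and 2759 on day 6. Its values near 0 were again those of the sparse libraries, and without these the log2 change went from 4.45 to 1.83 (adjusted p = 1), still with no overlap. The abundant members Ncam1, Sox4 and Sox11 had log2 changes of 0.55, 0.39 and 0.26. Tubb3 and Dcx, further neuronal markers, had 0 to 529 and 0 to 163 on day 5 and 206 to 891 and 0 to 177 on day 6. Without the 3 sparse libraries the median of the list was 0.36.

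Genes of axon guidance and of synapses came next. Of 44 guidance genes 4 were higher without overlap, the receptors Epha5, Plxna4, Nrp2 and Unc5a, and 0 were lower. Epha5, an ephrin receptor, had 43.6, 0, 0, 12.5, 0 and 0 on day 5 and 204, 131.5, 109, 125 and 202 on day 6 (log2 change 5.67 ± 1.42 SE, limma adjusted p = 0.108; 4.67 without the sparse libraries). The abundant members Slit3, Unc5a, Ackr3 and Efna5 had log2 changes of 1.45, 0.67, 0.56 and -0.25. The median of the guidance list was 0.69 and dropped to 0.10 without the 3 sparse libraries. Of 17 tested synaptic genes, Syt4 was higher without overlap (12.9 to 235 against 264 to 892). Chga, Syp and Vamp2, further abundant members, had log2 changes of 2.32, 1.04 and -0.11. Of the transmitter genes of other neuron classes, Gad1, Gad2, Slc32a1 and Slc17a6 were at 2.15 or less in all 11 libraries, while Slc17a7 reached 36.8 on day 5 and Slc6a5 reached 28.6 on day 5 and 74.7 on day 6.

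In the Notch pathway, by which nascent neurons hold back their neighbours, 0 of 26 genes were called and the median was 0.28. Id4, a bHLH inhibitor, was higher without overlap (3.22 to 332 against 344 to 947). The ligand Dll3 had 901 to 2667 on day 5 and 2157 to 7337 on day 6, and the receptor Notch1 1279 to 1725 and 1706 to 5883. Hes5, a Notch target, had medians of 9821 and 9403 (log2 change -0.10 ± 0.28 SE). Among progenitor genes 0 of 16 were called (median 0.21), with Nes, the intermediate filament nestin, at 1127 to 3122 and 2655 to 3513.

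Of 18 tested Shh pathway genes, 0 were called and 0 were without overlap, and the median log2 change was 0.02 beside 0.05 for all genes. Ptch1, the receptor and feedback target, had 3144 to 5167 on day 5 and 3800 to 5735 on day 6. Gli1, the transcriptional target most often used as a readout, had 1264 to 2080 and 944.5 to 1582.

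Cell cycle genes also gave 0 calls among 39, with a median of -0.19 and 11 positive. Mki67, the proliferation marker Ki-67, had 3809 to 5354 on day 5 and 4391 to 5699 on day 6. Ccnd2, a G1 cyclin of neural progenitors, was lower without overlap, with 19379 to 29751 on day 5 and 14421 to 17836 on day 6 (log2 change -0.49 ± 0.14 SE, limma adjusted p = 0.291). The mitotic kinase Plk1 had 1960 to 2504 and 451.6 to 2064.

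In the retinoic acid pathway, Crabp2, which carries retinoic acid to its nuclear receptors, passed the adjusted p with a change below 2-fold, with 7264 to 11336 on day 5 and 5055, 5025, 4301, 6637 and 4405 on day 6 (log2 change -0.78 ± 0.15 SE, limma adjusted p = 0.0104). It lost this threshold without replicate 2 of day 5 at 100 nM (0.0515), replicate 3 of day 5 at 500 nM (0.0511) or replicate 3 of day 6 at 500 nM (0.16). Cyp26b1, an enzyme that degrades retinoic acid, had 80.7, 8.58, 8.29, 0, 0 and 36.8 on day 5 and 172, 348, 433, 246 and 639 on day 6, without overlap (log2 change 5.25 ± 1.29 SE, limma adjusted p = 0.103; 4.11 without the sparse libraries). Crabp1 had 2329 to 6502 and 817 to 3979. The receptors Rara, Rarb and Rxra overlapped, and the median of the 16 tested genes was 0.00.

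Beside Lin28a, 1 of 20 tested timing regulators was lower without overlap, Myc (498 to 1150 against 67.0 to 487). The median log2 change of the list was -0.14, with 7 of 20 positive. Lower medians on day 6 with overlap were seen in Sall4 (1006 against 501.5), Trim71 (3186 against 2199) and Nr6a1 (1130 against 800). Lin28b, the paralog of Lin28a, had medians of 890 and 741 and a log2 change of -0.06 ± 0.54 SE. Igf2bp1 and Hmga2, further listed genes, had medians of 4298 and 3526 and of 1002 and 940, while Igf2bp3 had 2512 and 2822 and Dnmt3a, a DNA methyltransferase, 615 and 911. 

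Gliogenic genes, which mark the later potential of this domain, gave 0 calls among 17. Ptprz1, a receptor phosphatase, was higher without overlap (0 to 226 against 265 to 480), and Fgfr3 had 132 to 1381 and 1271 to 2298. Nfia, the switch factor of gliogenesis, had 55.3 to 822.5 and 230 to 732. Apoe, an apolipoprotein of glia, had 932 to 1982 on day 5 and 433, 392.4, 1319, 208 and 1015 on day 6 (log2 change -1.47 ± 0.34 SE, limma adjusted p = 0.0932). Sox10, the marker of oligodendrocyte precursors and neural crest, was at 0 in all 11 libraries.

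Among Hox genes, which record position along the body axis, 0 of 21 tested were called. Hoxb5 was higher without overlap (328 to 661 against 674 to 814) and Hoxb9 lower (32.3 to 205 against 0 to 22.7). Hoxb1, an anterior gene, had a median of 77.5 on day 5 and at most 2.32 on day 6.

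Stress and immediate early genes had a median log2 change of -1.85, 1 of 15 positive and 2 without overlap. This median was -2.20 to -0.82 under the alternatives, and -2.20 to -1.22 with 1 library left out. The abundant members Hsp90aa1, Dnajb1, Ier2 and Jun changed less than this median, with log2 changes of -0.36, -0.02, -0.41 and -1.35. The steepest falls were in genes with few reads. Hspa1a, the inducible heat shock protein 70, had 4.84 to 127 on day 5 and at most 2.32 on day 6. Its near-identical copy Hspa1b, with which it can share reads, had 0 to 352 and at most 2.04. Egr1, an immediate early factor, had 206.6, 83.6, 47.0, 139.5, 143 and 52.6 on day 5 and 2.93, 0, 2.16, 1.54 and 19.8 on day 6. None was called by limma (adjusted p = 0.367 for Hspa1a, 0.422 for Hspa1b and 0.567 for Egr1), whereas DESeq2 called 2 of the list lower, beside 1.57% of all genes. The median was -2.26 at 100 nM and -0.76 at 500 nM, and in p3, p2 and p0-1 it was -0.13, -0.70 and -0.36. The part of these genes in the other results was not tested.

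**Figure D3:**
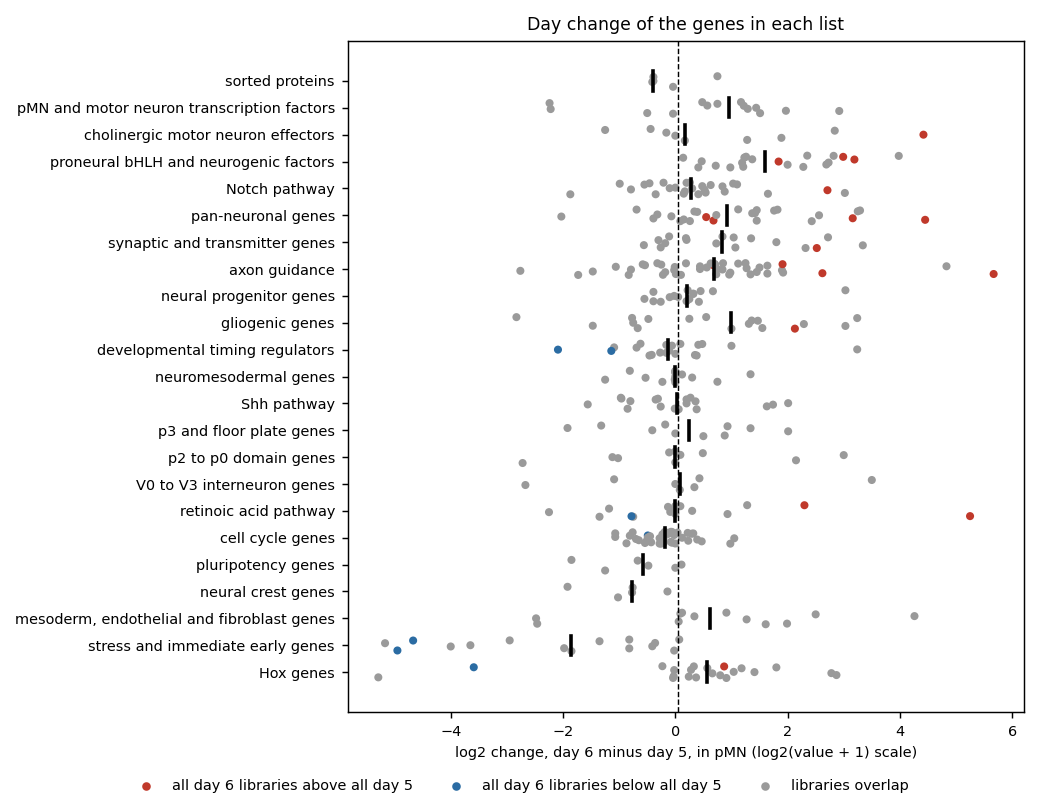
Log2 change from day 5 to day 6 in pMN for each tested gene of the 23 lists, 1 point per gene, on the log2(value + 1) scale. Black bars are list medians and the dashed line is the median of all tested genes; red and blue points are genes whose day 6 libraries all lay above or below the day 5 libraries, and the medians range from -1.85 for stress genes to 1.61 for proneural factors.

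The 2 SAG concentrations were then compared. At 100 nM alone, with 3 libraries a day, limma called 0 genes (576 at an unadjusted p below 0.05, with 0 by edgeR and 334 by DESeq2). At 500 nM, with 3 against 2 libraries, it called 13 (0.0931%), 3 higher (0.0215%) and 10 lower (0.0716%), of which 4 were among the 8 above (Chat, Nnat, Hs1bp3 and Lin28a). Replicate 3 of day 6, a sparse library, held the lowest value of all 11 libraries in 9 of the 10 lower genes and the highest in 3 of the 3 higher genes. For example, Gna13, a G protein subunit, had 262 and 0 in the 2 day 6 libraries at 500 nM and 561 to 983 on day 5 at that concentration. Pdgfa, a growth factor ligand, had 141 and 0 after 172 to 685. Without that replicate 6 genes were called, and without replicate 1 of day 6 at 500 nM there were 150 calls. The difference of the day change between concentrations itself was called for 0 genes (592 at an unadjusted p below 0.05, 0 by edgeR and 575 by DESeq2). The 8 genes had the same sign of change at both concentrations, for example 2.85 and 6.38 for Chat, 0.93 and 1.41 for Nnat, and -2.22 and -2.19 for Itga3.

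Finally, the day change of pMN was set against that of p3, p2 and p0-1, sorted from the same experiment with 11, 12 and 12 libraries on these days. For accessibility, the paper describes comparing cell types from within one dish. Some of these libraries may thus share a dish with pMN libraries, and the fit held no term for this. These had 35 (0.251%), 54 (0.387%) and 26 (0.186%) genes called between the days, against 8 in pMN, and the difference between these counts was not tested. Of the 8 genes, 1 was also called in the same direction in p3, 2 in p2 and 1 in p0-1. Nnat had log2 changes of 0.87, 0.93 and 0.80 in p3, p2 and p0-1, passing the adjusted p but not the fold in each (limma adjusted p = 0.0279, 0.00695 and 0.0279). Crabp2 was lower in all of them (-1.02, called, and -0.75 and -0.61, under 2-fold), and Cyp26b1 was called higher in all of them (5.83, 6.64 and 6.27). Lin28a was called in p3 (-2.02), Itga3 in p2 (-1.62), and Gpx3 in p2 and p0-1 (-2.48 and -1.98).

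Chat, Slc25a51 and Hs1bp3 were then set against the other types. Chat had at most 24.4 normalised reads in any p3, p2 or p0-1 library of day 6, and the day change in pMN exceeded the mean of the other types by 4.27 on the log2 scale (unadjusted p = 0.000165), which did not pass adjustment over all genes (limma adjusted p = 1). The differences for Slc25a51 (3.41) and Hs1bp3 (-2.02) did not pass either (both adjusted p = 1). No gene was called against the mean of the other types (538 genes at an unadjusted p below 0.05, 0 by edgeR and 350 by DESeq2), against p2 (718, 0 and 376) or against p0-1 (580, 0 and 334). Against p3 1 gene was called (0.00716%), Sphkap, an anchoring protein for protein kinase A (chromosome 1, mm10, 83255444 to 83408200, reverse strand). It was at 0 in all 11 pMN libraries and had 0 to 195 on day 5 and 22.5 to 265 on day 6 in p3, a difference of day changes of -5.42 ± 0.94 SE (limma adjusted p = 0.00598). The p3 change itself was 5.42, so this difference is the change in p3 alone and describes none in pMN. The gene was tested only through its p3 values, and the call was lost with edgeR, with a pseudocount of 10, with a minimum mean of 100 and without the 3 sparse libraries.

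**Figure D4:**
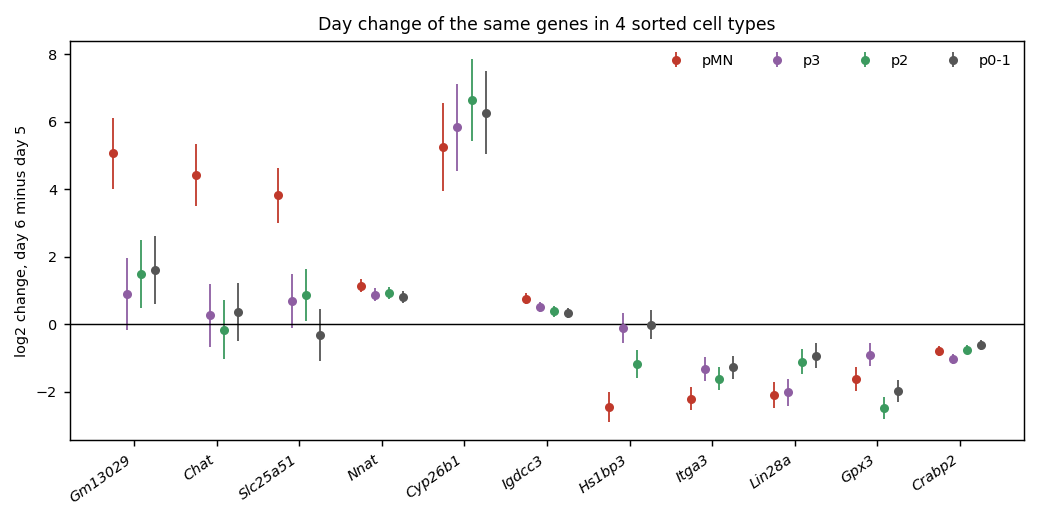
Log2 change from day 5 to day 6 in pMN, p3, p2 and p0-1 for the 8 genes called in pMN and for Cyp26b1, Igdcc3 and Crabp2, with bars of ± 1 standard error from the limma fit. Nnat, Igdcc3, Itga3, Lin28a, Gpx3, Cyp26b1 and Crabp2 lie on one side of 0 in all 4 types, while Chat is 4.42 in pMN and between -0.16 and 0.36 in the others.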

How the data were processed

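The authors aligned the reads with STAR in an nf-core pipeline to mm10 with the ERCC spike-ins and counted them per gene with featureCounts, ignoring duplicates; whether strand was used is not stated. Libraries that failed their quality criteria had been removed. The deposited expression signal is read counts divided by one size factor per library, and 100% of the 834400 values above 0 were whole multiples of 1 read (tolerance 0.001), so the counts were recovered. The deposited annotation, which gives positions as other values, was used for coordinates. The limit of 3 reads used for Gm13029 covers counting error only, whereas SE and SD values rest on the spread between libraries.

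Differences were tested with limma 3.58.1 (R 4.3.3) on log2(value + 1) with an intensity trend, keeping the 13964 genes that averaged 10 or more over the 65 libraries (44 residual and 7.4 prior degrees of freedom). Folds on this scale are differences of mean log values; they depend on the pseudocount and, where single libraries are at 0, are not the ratio of the group means. Means ± SD are over libraries labelled as replicates; where these share a culture, p-values measure technical spread. edgeR 4.0.16 and DESeq2 1.42.0 on the recovered counts, other filters, scalings and pseudocounts, and leaving out libraries were alternatives. The study states no test for these data. The code was tested on simulated data.

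Members, the 23 gene lists and tests were chosen with earlier results of these data known. The rule for named genes took the 5 sorted genes and called genes averaging 100 or more on one day with the same sign at both SAG concentrations. It also took called members of lists, up to 4 abundant members of each list that were not called, and called differences. Not all of these abundant members are described. Further genes were added after their values were seen, mainly members without overlap.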

Additional observations from a re-analysis of the deposited data

Results flagged for a closer look

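In groups of 5 and 6 libraries, 25 groups of values were checked for a library far from the others of its day, and chance gives such a flag in about 1 of 20. The flagged values were Chat at 96.0 normalised reads in replicate 1 of day 5 at 100 nM and at 410 in replicate 3 of day 6 at 500 nM, Lin28a at 2377 in replicate 3 of day 5 at 500 nM, and Slc25a51 at 1320 in replicate 3 of day 6 at 500 nM. Replicate 3 of day 6 at 500 nM was 1 of the 3 sparse libraries.

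Sphkap was flagged because its day change in pMN differed from that in p3, by -5.42 on the log2 scale, with all 11 pMN libraries at 0, so that the difference is the change in p3 alone.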

How the results depend on the processing

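Of the 8 calls between the days, the number became 18 with a pseudocount of 10, 16 with quantile normalisation, 16 with array weights, 4 at an adjusted p below 0.01, 5 with edgeR, 312 with DESeq2, 0 with the pMN libraries alone, 1 without the 3 sparse libraries (chosen after seeing the data) and 4 to 11 with 1 library left out; it was 4 without replicate 2 of day 5 at either concentration or replicate 3 of day 6 at 500 nM. At 100 nM, 0 calls became 334 with DESeq2 and 0 to 8 with 1 library left out (8 without replicate 3 of day 5 at 100 nM). At 500 nM, 13 became 8 with a pseudocount of 10, 5 without the sparse libraries, 0 with edgeR, 707 with DESeq2, 1 at an adjusted p below 0.01 and 2 to 150 with 1 library left out (2 and 5 without replicates 2 and 3 of day 5 at 500 nM, 6 and 150 without replicates 3 and 1 of day 6 at 500 nM, and 8 and 7 without replicate 1 of days 5 and 6 at 100 nM). The difference between concentrations gave 575 with DESeq2, 1 without the sparse libraries and 0 to 62 with 1 library left out (62 without replicate 1 and 1 without replicate 3 of day 6 at 500 nM). Against p3, 1 became 0 with a pseudocount of 10, a minimum mean of 100, edgeR or without the sparse libraries, 3 with quantile normalisation, 7 with array weights, 448 with DESeq2 and 1 to 2 with 1 library left out (2 without replicate 1 of day 6 at either concentration). Against p2 it was 1 with array weights and 376 with DESeq2, against p0-1 334 with DESeq2, and against the mean of the others 1 with a pseudocount of 10, 1 with no filter and 350 with DESeq2. The cause was not tested. Nkx2-2 and Nkx6-1, neither called, turned sign in some settings, with values of -1.04 to 0.51 for Nkx2-2 (0.09, 0.28 and 0.51 were positive) and -0.27 to 0.15 for Nkx6-1 (0.07, 0.14 and 0.15) with 1 library left out, and Nkx6-1 to 0.02 with edgeR and 0.05 with DESeq2.

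The main fit did not pair libraries by replicate number. Correlations of the deviations of same-numbered libraries were 0.00993 to 0.0987, with 0 of 15 pairs above 0.1 (median 0.036). Other pairs had -0.0699 to 0.02 (median -0.0157). All same-numbered pairs were thus positive but weak. Deviations were taken from the means of small groups, so weak correlations cannot show that the libraries were unpaired. The numbers may still mark libraries of one differentiation, which the labels do not state. The paper describes the replicates of its accessibility data as independent differentiations. If the numbers mark these, the main fit treats libraries of one differentiation as independent. With a replicate block the count was 5, and 0 with the block in the pMN libraries alone; Chat (adjusted p = 0.0555), Gm13029 (0.0555) and Gpx3 (0.0555) lost their calls in the block fit. With a minimum mean of 100, no value could be had for the pluripotency list, since no tested gene was left. The genes missed in the 3 sparse libraries limit what can be detected for genes with few reads.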
